A study of Arabidopsis thaliana with 2 samples.

Results

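The nuclear tRNA genes of Arabidopsis thaliana that carried a peak of CCA1 chromatin immunoprecipitation sequencing (ChIP-seq) are described here. A tRNA gene on chromosomes 1 to 5 was a member when a peak of either of the 2 deposited lists overlapped the gene, extended by 200 bp on each side, by at least 1 bp. This held for 110 of 625 nuclear tRNA genes, and the other 515 had no peak. The members were chosen by the positions of these peaks, so the counts of members are descriptions and carry no test.

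ChIP-seq sequences the DNA to which a chosen protein was cross-linked. The protein was CCA1, a clock transcription factor with a MYB domain that is most abundant around dawn, here fused to a FLAG tag. Both libraries came from whole seedlings of the Col-0 accession, aged 14 days and of genotype CCA1pro:CCA1-FLAG cca1 lhy, in which the CCA1 promoter drives the tagged protein in plants mutated in CCA1 and LHY. The seedlings grew at 22 °C on medium with 2% sucrose in 12 h of light and 12 h of dark, and were fixed 1 h after the lights came on. The DNA was sequenced as 1 library on an Ion PGM (IonPGM) and 1 on an Illumina GAII (Illumina). There is thus no replicate to give an error, and sequencer and library kit cannot be told apart. The labels do not say whether both libraries came from the same plants.

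Transfer RNAs carry amino acids to the ribosome. Their genes are short and are transcribed by RNA polymerase III, whose general factor TFIIIC binds control elements inside the transcribed sequence, the A box and the B box, and places TFIIIB just upstream. The nuclear genome holds many near-identical copies, most of them scattered between protein-coding genes and some in tandem arrays. The RefSeq gene table used here named the amino acid for 623 of the 625 genes. Genes are written with their locus identifier and amino acid, and the median gene is 73 bp long.

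The Illumina list reached more tRNA genes than the IonPGM list. An IonPGM peak lay at 52 genes (8.32%, exact 95% interval 6.28 to 10.8%), an Illumina peak at 93 (14.9%, 12.2 to 17.9%) and a peak of either list at 110 (17.6%, 14.7 to 20.8%). These intervals cover counting error only. With the same extension the background over all 37899 nuclear genes was 6.91% for IonPGM, 7.2% for Illumina and 10.3% for either list. Over protein-coding genes, whose median length is 2078 bp and which offer a peak far more room, it was 8.2%, 8.47% and 12.2%. Over windows of 473 bp, the length of the median extended tRNA gene, set on the ends of protein-coding genes, it was 3.43%, 3.96% and 5.49%. The choice of members used these peaks, so nothing is read from the distance to the background.

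Both lists had a peak at 35 tRNA genes (5.6%, exact 95% interval 3.93 to 7.7%), against 3.79% of all nuclear genes, 4.45% of protein-coding genes and 1.89% of the windows at gene ends. At all 35 the IonPGM and the Illumina peak overlapped each other. These genes were 67.3% of the tRNA genes with an IonPGM peak and 37.6% of those with an Illumina peak. Over all nuclear genes 1438 had a peak of both lists, among 2620 with an IonPGM peak and 2728 with an Illumina peak. A further 17 tRNA genes (2.72%) had an IonPGM peak only and 58 (9.28%) an Illumina peak only. No member had more than 1 peak of a list.

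**Figure D1:**
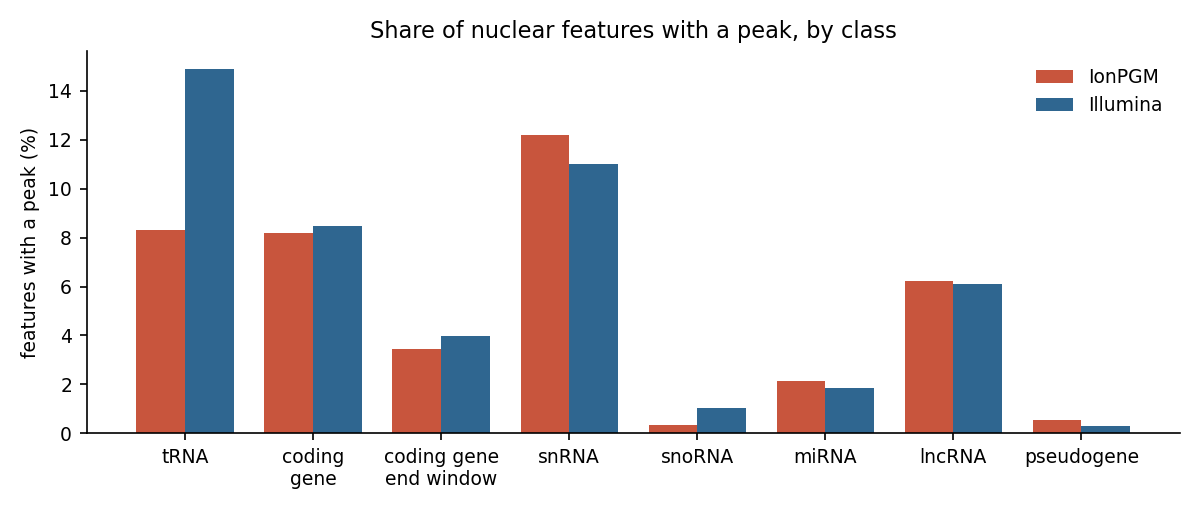
Percent of nuclear features with a peak of the IonPGM list and of the Illumina list, by feature class; genes are extended by 200 bp on each side and the windows on coding gene ends are 473 bp long. tRNA genes stand at 8.32% with IonPGM and 14.9% with Illumina, against 3.43% and 3.96% of the windows on coding gene ends.

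The peaks sat on the tRNA genes themselves. In the IonPGM list 50 peaks made up the 52 calls, and 41 of them overlapped a tRNA gene without any extension. In the Illumina list 91 peaks made up the 93 calls, and 87 of them overlapped a tRNA gene. In each list 2 peaks reached 2 neighbouring tRNA genes and none reached more. A whole tRNA gene lay inside 34 of the 50 IonPGM peaks (68%) and 77 of the 91 Illumina peaks (84.6%).

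Peak centres were close to gene centres, and closer in the Illumina list. The median distance between them was 60.25 bp for IonPGM (quartiles 23.38 and 142.2 bp) and 32 bp for Illumina (15.25 and 83.5 bp). Centres lay within 100 bp of the tRNA gene centre for 32 IonPGM peaks (64%) and 72 Illumina peaks (79.1%). Most of these tRNA genes also lie beside a protein-coding gene, yet the peak centre was nearer to the tRNA gene centre than to any protein-coding gene end for 30 of 50 IonPGM peaks (60%) and 75 of 91 Illumina peaks (82.4%). Because the rule admits only peaks within reach of a tRNA gene, part of this closeness follows from the choice of members.

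Coverage was also measured around all 625 tRNA genes, members or not, and fell with distance. At the gene centre 6.4% of the tRNA genes were covered by an IonPGM peak and 13.3% by an Illumina peak. At 250 bp these were 1.36% and 1.92%, and at 500 bp 0.64% in each list. Around protein-coding gene ends coverage was 1.58% (IonPGM) and 2.09% (Illumina) at the end itself and 0.906% and 0.747% at 500 bp. When the extended tRNA windows were moved along the chromosome, a peak of either list met 18 of them after a move of 1000 bp in either direction, 23 after 2000 bp and 17 after -2000 bp, against 110 in place.

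**Figure D2:**
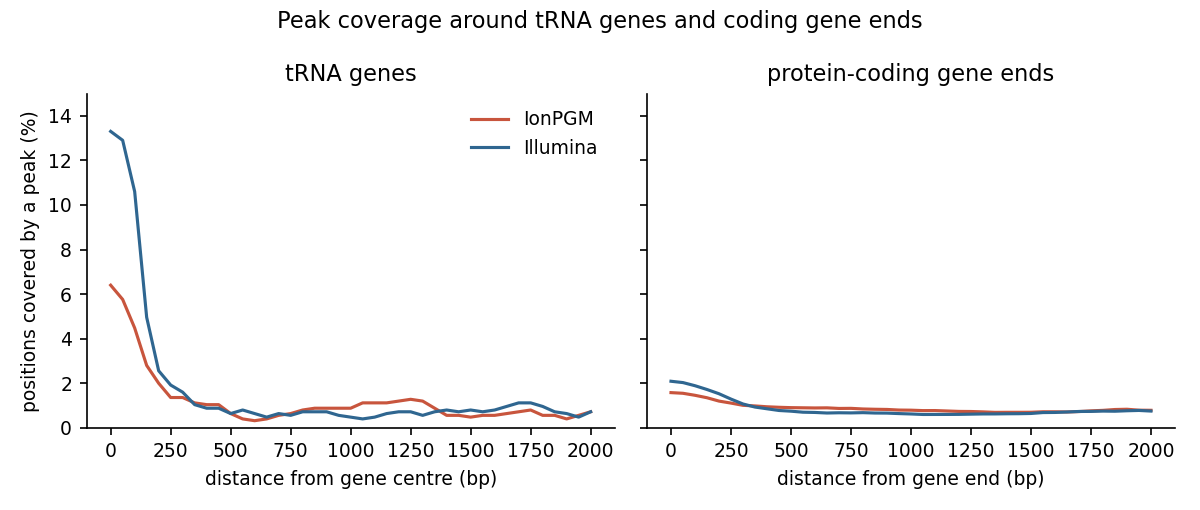
Percent of positions covered by a peak of each list against the distance in bp from the centre of the 625 tRNA genes (left) and from the ends of protein-coding genes (right), both directions pooled. Around tRNA genes coverage is 6.4% (IonPGM) and 13.3% (Illumina) at the centre and 0.64% in each list at 500 bp.

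Few members depended on the 200 bp extension. Of the 625 genes 102 had a peak that touched or overlapped the gene, 4 had the nearest peak under 100 bp away and 4 had it at least 100 but under 200 bp away. Just inside the limit were AT2G47740 (Gly), 170 bp from an IonPGM peak, and AT5G56975 (Val), 166 bp from an IonPGM peak. Just outside it were AT1G69000 (Met), 227 bp from an IonPGM peak, and AT2G39860 (Asp), 238 bp from an Illumina peak. The nearest peak was at least 200 but under 500 bp away for 10 genes, and 489 genes had none within 1000 bp.

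Peak strength is given as the percentile of the authors' score within its own list, because the scale of the score is not stated. Peaks at tRNA genes spanned nearly the whole range of each list. The median percentile was 49.6 for the 50 IonPGM peaks (lowest 2.9, highest 99.3), against 49.7 for all other nuclear IonPGM peaks. It was 51.2 for the 91 Illumina peaks (lowest 1.59, highest 99.6), against 49 for all other nuclear Illumina peaks. Over the 90th percentile lay 8 IonPGM and 11 Illumina peaks at tRNA genes.

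Genes with a peak of both lists had the higher scores. Their median percentile was 60.9 in the IonPGM list and 78.8 in the Illumina list (35 genes). Genes reached by 1 list only had a median of 34.2 with IonPGM (17 genes) and 34.2 with Illumina (58 genes). The 2 lists did not rank the common genes alike in every case: the Illumina percentile was the higher one at 26 of the 35 genes and the IonPGM percentile at 9, and they were more than 40 apart at 6. The widest gaps included AT4G31075 (Arg), at 4.636 in IonPGM and 79.03 in Illumina, and AT1G11010 (Met), at 2.896 and 71.46. The same comparisons over all nuclear peaks are not given here, so nothing particular to tRNA genes is read from them.

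Overlap with the other list differed with where the peak sat in the Illumina list, and little in the IonPGM list. Of the 72 Illumina peaks centred within 100 bp of the tRNA gene centre 31.9% overlapped an IonPGM peak, and of the 19 centred farther off 57.9% did. Over all nuclear Illumina peaks the share was 51.7%. Of the 32 centred IonPGM peaks 65.6% overlapped an Illumina peak, and of the 18 others 72.2%, against 52.2% of all nuclear IonPGM peaks. The centred peaks had the lower median percentiles, 44.3 (IonPGM) and 49.6 (Illumina), against 63.9 and 59.3 for the peaks farther off. The other nuclear peaks had medians of 49.7 and 49. Over the 90th percentile, 3 of 8 IonPGM and 7 of 11 Illumina peaks at tRNA genes were centred.

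**Figure D3:**
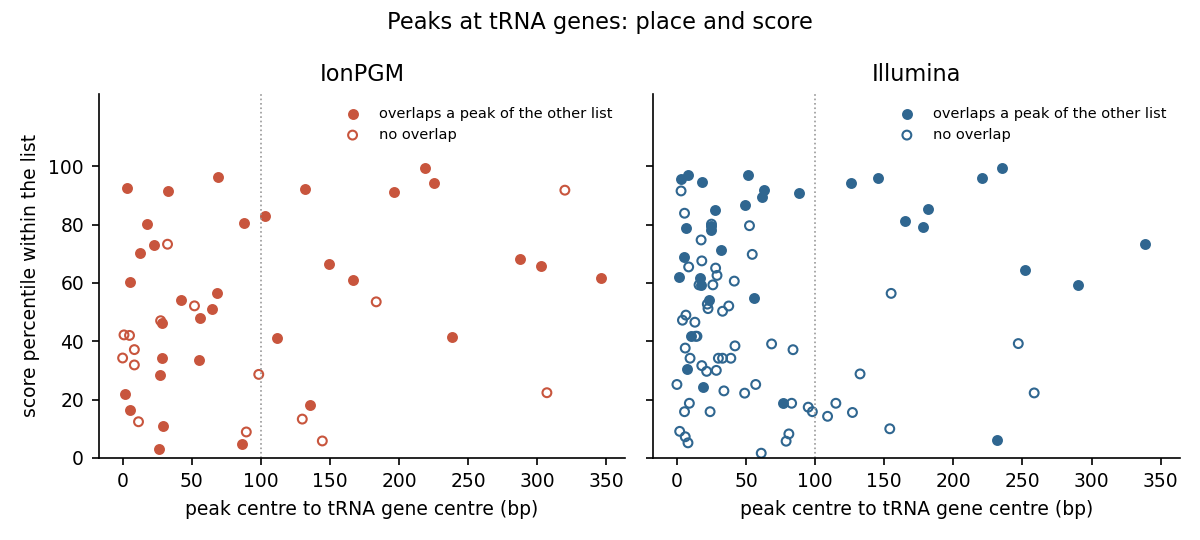
Score percentile within the list against the distance in bp from peak centre to tRNA gene centre, for the 50 IonPGM peaks (left) and 91 Illumina peaks (right) at tRNA genes; filled points overlap a peak of the other list, open points do not, and the dotted line marks 100 bp. Most Illumina peaks lie left of the line, and most of those are open points (31.9% filled).

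Peak widths differed little from the rest of each list. The median width at tRNA genes was 247.5 bp with IonPGM and 261 bp with Illumina, against 253 bp and 275 bp for the other nuclear peaks. The narrowest width found in a list was 184 bp for IonPGM and 220 bp for Illumina. Peaks of exactly that width made up 12% of the IonPGM peaks at tRNA genes, against 6.86% of the other nuclear peaks, and 20.9% of the Illumina ones, against 14.4%.

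The strongest member was AT2G21670 (Leu), which lies 252 bp from GRP7, which encodes an RNA-binding protein rich in glycine and is itself clock-controlled. Its peaks ran on chromosome 2 from 9266314 to 9266947 (IonPGM, percentile 99.31) and from 9266300 to 9266927 (Illumina, 99.59) on the TAIR10 build. Their centres were 218.5 and 235.5 bp from the tRNA gene centre but 73.5 and 56.5 bp from the nearest protein-coding gene end. Both centres were nearer to that gene end than to the tRNA gene centre.

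Among the 35 genes with a peak of both lists, the next by the mean of both percentiles included peaks nearer to the tRNA gene and peaks nearer to a coding gene end. AT2G15950 (Tyr) had percentiles of 96.38 (IonPGM) and 96.89 (Illumina), with the peaks at chromosome 2: 6946612 to 6947196 and 6946569 to 6946998. Their centres lay 69 and 51.5 bp from the tRNA gene centre and 192 and 312.5 bp from a coding gene end, so both were nearer to the tRNA gene. AT5G02815 (Ser), 73 bp from RHL2 (a subunit of a plant topoisomerase complex), had 94.45 and 95.94, with centres 225.5 and 220.5 bp from the tRNA gene centre. AT2G46120 (Glu), 59 bp from KPHMT1 (an enzyme of pantothenate synthesis), had 92.66 and 97.12.

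The peaks at AT2G46120 were among the best centred of the strong ones. They ran on chromosome 2 from 18956516 to 18956832 (IonPGM) and from 18956511 to 18956859 (Illumina), with centres 3 and 8 bp from the tRNA gene centre and 92 and 103 bp from a coding gene end. AT5G45745 (Gly), 144 bp from RABA1c (a small GTPase of membrane traffic), was at 92.24 and 96.14, with centres 132 and 145.5 bp off and 47.5 and 34 bp from a coding gene end. AT3G10415 (Tyr), 100 bp from SCPL49 (a serine carboxypeptidase-like protein), was at 91.05 and 94.45, with centres 196.5 and 126.0 bp off.

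Of the other genes among the 10 highest with a peak of both lists, AT1G16100 (Lys), beside WAKL6 (a wall-associated kinase-like protein), had percentiles of 91.69 in IonPGM and 86.76 in Illumina with centres 33 and 49 bp from the tRNA gene centre. AT4G18815 (Gly) had 82.8 and 90.76, with centres 8.5 and 6.5 bp from a coding gene end. AT4G17765 (Trp) had 73.11 and 95.63, with centres 22.5 and 3 bp from the tRNA gene centre and 172 and 152.5 bp from a coding gene end. AT5G66535 (Asn) had 80.66 and 85.34, with the IonPGM centre 88 bp and the Illumina centre 182.0 bp off. In 4 of these 10 genes both centres lay within 100 bp of the tRNA gene centre, against 18 of all 35 genes with a peak of both lists.

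Among genes reached by IonPGM only, the highest percentile was at AT2G47740 (Gly), 91.83. That peak, at chromosome 2: 19560096 to 19560324, lay 320 bp from the tRNA gene centre and 83 bp from a coding gene end, and the nearest protein-coding gene is GH3.9 (of a family of auxin-conjugating enzymes). AT2G30190 (Gly) followed at 73.29, with its centre 32.5 bp from the tRNA gene centre, and AT5G44375 (Val) at 53.52, with its centre 183.5 bp away. A snoRNA gene, AT2G08375, shares the IonPGM peak of AT2G30190.

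The 3 highest genes reached by Illumina only were all tightly centred. AT1G15090 (Asn), 14 bp from LPP2 (a lipid phosphate phosphatase), had a peak at percentile 91.57, chromosome 1: 5189579 to 5189862, centred 3 bp from the tRNA gene centre. AT3G55795 (Met), 50 bp from SBPASE (sedoheptulose bisphosphatase of the Calvin cycle), had one at 83.92, chromosome 3: 20709064 to 20709342, centred 5.5 bp away. AT4G17612 (Trp) had one at 80.18, chromosome 4: 9815121 to 9815406, centred 25 bp away.

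By amino acid, the genes with a peak were spread over 19 of the 20 amino acids, and 17 amino acids had at least 1 gene with a peak of both lists. Trp genes had the highest share, 7 of 14 (50%, exact 95% interval 23 to 77%), followed by His with 4 of 10 (40%, 12.2 to 73.8%), Glu with 8 of 24 (33.3%, 15.6 to 55.3%) and Asn with 5 of 16 (31.2%, 11 to 58.7%). Tyr (5 of 75, 6.67%, 2.2 to 14.9%), Pro (5 of 66, 7.58%) and Ser (5 of 64, 7.81%) had the lowest shares above 0, and none of the 15 Cys genes had a peak. The intervals of neighbours in this order overlap widely. Genes of 1 amino acid resemble each other in sequence, so reads and calls at them are not independent.

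**Figure D4:**
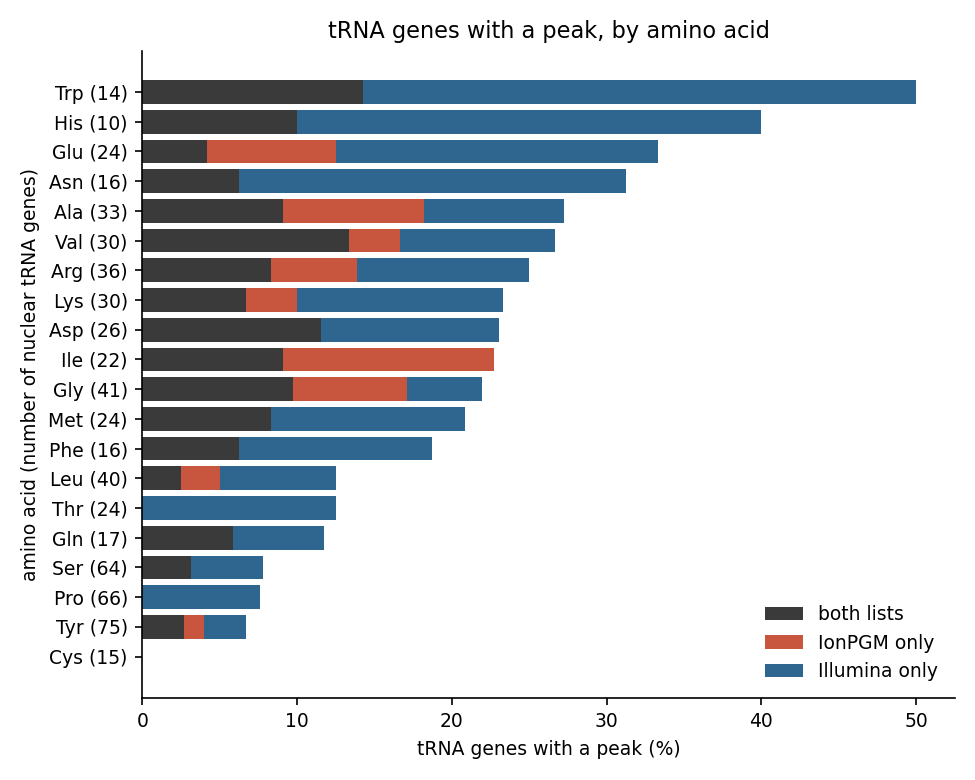
Percent of nuclear tRNA genes with a peak, by amino acid (number of genes in brackets), divided into genes with a peak of both lists, of IonPGM only and of Illumina only. Trp (50%) and His (40%) head the order and owe most of their length to Illumina-only genes, whereas no Ile gene is Illumina-only.

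The order rested mainly on the Illumina list. All 7 Trp members had an Illumina peak and 2 an IonPGM peak, and all 4 His members had an Illumina peak and 1 an IonPGM peak. In the IonPGM list alone the Trp share was 14.3% and the His share 10%, and Ile led with 5 of 22 (22.7%), against 2 of 22 (9.09%) in the Illumina list. The Illumina count was higher than the IonPGM count for 16 amino acids, equal for 2 (Ala and Cys) and lower for 2 (Ile and Gly).

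Among the Trp genes, 5 of the 7 members had their Illumina centre within 25 bp of the gene centre. AT5G18085, beside SAUR24 (of an auxin-responsive gene family), stood at percentile 21.99 in IonPGM and 61.7 in Illumina, with centres 2 and 16.5 bp off. AT1G15450 (67.57), AT1G11640 (37.66) and AT1G20820 (5.704) had Illumina peaks only. AT2G07748 (39.2) also had an Illumina peak only, which lay 100 bp from the gene and was centred 247 bp away. This gene belongs to the chromosome 2 run with a mitochondrial genome copy described below. The His members were of middling score: AT5G49435 stood at 48.05 in IonPGM and 79.65 in Illumina, and AT3G06665 (52.74), AT1G02600 (50.29) and AT4G14345 (41.71) had an Illumina peak only, each centred within 33 bp.

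Ile genes had more IonPGM than Illumina peaks. AT1G07100, beside F2KP (a bifunctional enzyme of fructose bisphosphate metabolism), stood at 46.4 in IonPGM and 68.91 in Illumina, and AT4G26375 at 60.34 and 41.71. The other 3 Ile members had an IonPGM peak only: AT1G69130 at 42, AT3G02315 at 37.13 and AT4G39985 at 22.34. The peaks of the first 2 of these were centred 5 and 8.5 bp from the gene centre, and that of AT4G39985 was 307 bp away.

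The amino acids with the most members were Ala, Arg and Gly, with 9 each (27.3%, 25% and 22% of their genes). Gly genes had 4 members with a peak of both lists, with percentiles from 10.77 (AT5G59385) to 92.24 (AT5G45745) in IonPGM and from 62.03 to 96.14 at the same 2 genes in Illumina. The highest Arg percentiles were 52.14 in IonPGM, at AT1G11030, which had no Illumina peak, and 89.49 in Illumina, at AT2G42970, which stood at 33.44 in IonPGM. Among Ala genes the highest Illumina percentile was 91.98, at AT2G30850, which stood at 51.07 in IonPGM with centres 64.5 (IonPGM) and 63 bp (Illumina) off, and the highest IonPGM percentile was 65.98, at AT5G43455, which stood at 64.45 in Illumina.

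Val, Glu, Lys and Asp followed with 8, 8, 7 and 6 members. The highest Val gene was AT1G17670, at 80.27 in IonPGM and 78.08 in Illumina, where the same peaks also covered the Asp gene AT1G17660, 18 and 24.5 bp from its centre. Another Asp gene, AT5G21378, beside CIPK26 (a calcium-signalling protein kinase), stood at 56.58 and 94.69, with centres 68.5 and 18 bp off. Besides AT1G16100, the Lys gene AT1G20250, beside VAB3 (a subunit of the vacuolar proton pump), had peaks of both lists, at 54.14 and 78.77. AT2G46120 was the sole Glu gene with a peak of both lists, and the Illumina peak of AT1G20170 (Glu, 25.17) was centred 0 bp from the gene centre.

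Met genes fall into 2 length classes. As background, the initiator type has no intron and the elongator type has one. The classes do not separate these types cleanly. They also hold AT2G07755 (73 bp), AT2G07758 (74 bp) and AT2G07794 (81 bp), from the chromosome 2 run with a mitochondrial genome copy described below. Of 12 genes of 72 to 74 bp 3 were members, and of 12 genes of 81 to 86 bp 2 were. Thr (3 of 24) and Pro genes had Illumina peaks only. The 5 Pro peaks were low, from 7.227 (AT3G05755) to 47.22 (AT1G70050), and 4 of them were centred within 18 bp of the gene centre.

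The remaining amino acids had few members. Of 40 Leu genes 5 were members (12.5%), and apart from AT2G21670 none had a peak above percentile 28.63, that of the IonPGM peak at AT4G23635, whose gene overlaps the potassium transporter gene TRH1. Of 16 Phe genes 3 were members, and AT5G25625 stood at 70.15 in IonPGM and 24.39 in Illumina, the reverse of the usual order. Of 17 Gln genes 2 were members, AT2G16240 at 41.28 and 18.72 and AT5G23665 with an Illumina peak at 18.72. The Thr peaks lay between 46.53 (AT4G34975) and 69.8 (AT5G60966) in the Illumina list.

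Tandem arrays of 3 or more tRNA genes carried almost no peak. A cluster was defined as a run of at least 2 tRNA genes with gaps of at most 1000 bp, which gave 19 clusters with 150 genes and left 475 solitary genes. Of the solitary genes 103 had a peak of either list (21.7%, exact 95% interval 18.1 to 25.7%), of the 18 genes in pairs 6 did (33.3%, 13.3 to 59%), and of the 132 genes in the 10 clusters of 3 or more 1 did (0.758%, 0.0192 to 4.15%). Genes of 1 cluster can share a peak and are not independent, so the intervals for pairs and for clusters of 3 or more are too narrow. Of the 132 genes, 92 lie in only 2 clusters. Counted as loci, 4 of 19 clusters (21.1%) held a member, close to the 21.7% of solitary genes.

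The largest cluster, on chromosome 1 from AT1G56730 to AT1G57530, holds 54 Tyr and 27 Ser genes over 39.7 kb, and no peak of either list lay on it. The nearest IonPGM peak was 34846 bp away and the nearest Illumina peak 26704 bp. The Pro arrays had no peak either. Clusters of 4, 5, 11 and 6 genes between AT1G28720 and AT1G28990 on chromosome 1 and 1 of 9 genes from AT2G33890 to AT2G33970 on chromosome 2 had no peak, and for the last the nearest peaks were 13269 bp (IonPGM) and 13303 bp (Illumina) away. Pro clusters of 2 and 3 genes between AT1G45238 and AT1G45246 and a cluster of 4 Cys genes from AT5G20852 to AT5G20858 also had none. How reads that match several copies were handled is not given in the sources used here, so missing signal and unplaced reads cannot be told apart in these arrays.

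The low shares of Tyr, Pro and Ser went with the arrays. Of the Tyr genes 57 lie in clusters with 1 member among them, while 4 of the 18 solitary Tyr genes were members (22.2%). The 41 clustered Pro genes had no member and the 25 solitary ones had 5 (20%), and the 29 clustered Ser genes had no member and the 35 solitary ones 5 (14.3%). None of the 7 clustered and none of the 8 solitary Cys genes had a peak. The exact 95% interval for the solitary Cys genes, 0 to 36.9%, holds the 21.7% of all solitary tRNA genes. Whether solitary Cys genes differ from the others was therefore not settled.

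The clustered members were few. AT1G17660 (Asp) and AT1G17670 (Val) form a pair under 1 peak of each list. AT3G63003 and AT3G63006 (both Ala), beside NPL41, share 1 IonPGM peak at percentile 8.876, and AT4G11213 and AT4G11216 (both Leu), beside BTI2, share 1 Illumina peak at 5.146. In both of these pairs the peak centre was nearer to the second gene, 89.5 and 8 bp from its centre. The pair AT3G59923 and AT3G59926, also of 1 Asp and 1 Val gene, had no peak, and the nearest ones lay 3144 bp (IonPGM) and 3175 bp (Illumina) away.

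The single member in a cluster of 3 or more was AT2G07765 (Tyr), with an Illumina peak at percentile 15.83 in the 6-gene cluster from AT2G07759 to AT2G07765. It belongs to a run of 23 tRNA genes on chromosome 2, from AT2G07743 to AT2G07766, in a stretch known to hold a copy of the mitochondrial genome. In this run 3 genes had an Illumina peak, AT2G07748, AT2G07792 (Tyr, 22.27) and AT2G07765, and none had an IonPGM peak. The Illumina list also held 17 peaks on the mitochondrial genome and the IonPGM list 3. The part of mitochondrial DNA in these 3 calls was not tested.

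**Figure D5:**
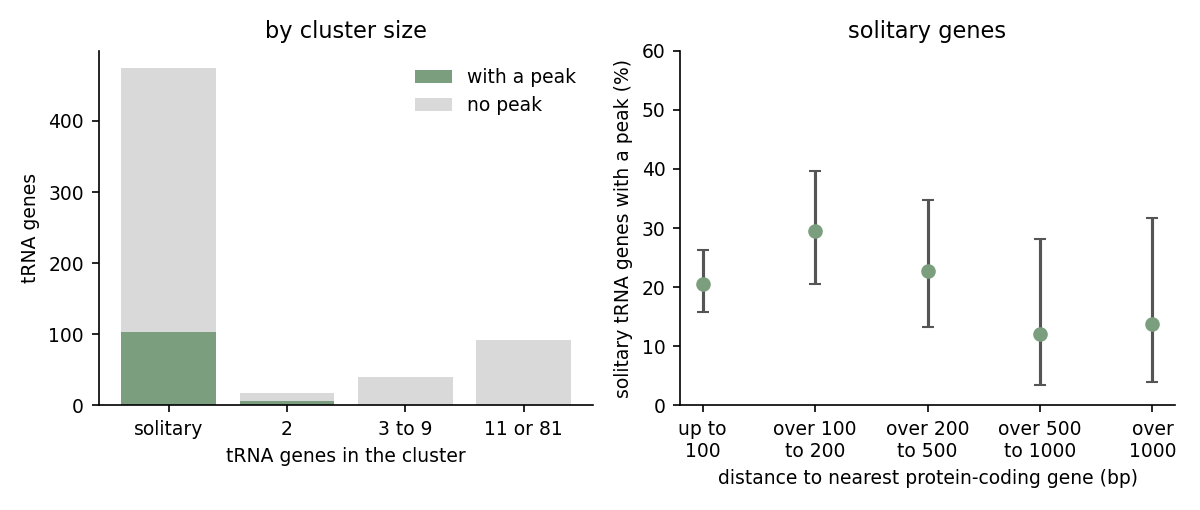
Left, number of tRNA genes with and without a peak of either list by the size of their cluster; right, percent of solitary tRNA genes with a peak by the distance to the nearest protein-coding gene, with exact 95% intervals. Of the 132 genes in clusters of 3 or more 1 has a peak, and the intervals of the distance classes overlap.

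Most solitary tRNA genes lay close to a protein-coding gene, members and others. The median distance to the nearest protein-coding gene was 98.5 bp for members and 130.0 bp for tRNA genes without a peak, and 100 bp and 91 bp among solitary genes. An end of a protein-coding gene lay within 1000 bp for 96.1% of solitary members and for 91.9% of solitary genes without a peak. By distance to the nearest coding gene, 52 of 252 solitary tRNA genes within 100 bp had a peak (20.6%), 28 of 95 at over 100 to 200 bp (29.5%), 15 of 66 at over 200 to 500 bp (22.7%), 4 of 33 at over 500 to 1000 bp (12.1%) and 4 of 29 farther off (13.8%). A protein-coding gene overlapped 11 of the 110 members and 52 of the 515 tRNA genes without a peak. The gene table gives no strand or exon, so whether a tRNA gene lies upstream or downstream of its neighbour, or in an intron, was not assigned.

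Of the members 4 lay more than 1000 bp from any protein-coding gene, and 1 of these had a peak centred within 100 bp of its centre. AT1G69130 (Ile), 3381 bp from AP1 (a floral identity gene), had an IonPGM peak at percentile 42 centred 5 bp from its centre, at chromosome 1: 25989666 to 25989857. AT3G52285 (Pro) had an Illumina peak at 18.72, centred 115 bp from its centre and 943.5 bp from a coding gene end. AT2G07792 (Tyr) had an Illumina peak at 22.27, centred 258.5 bp from its centre and 85 bp short of the gene. AT5G56975 (Val) had overlapping peaks of both lists at 61.74 and 73.43, centred 346.5 and 339.0 bp from its centre.

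By chromosome, the share of solitary tRNA genes with a peak went from 17.3% (13 of 75, chromosome 4) to 28.6% (34 of 119, chromosome 5), with 18.9% on chromosome 1, 21.1% on chromosome 2 and 20.5% on chromosome 3. The exact 95% intervals of chromosome 4 (9.57 to 27.8%) and chromosome 5 (20.7 to 37.6%) overlap. Over all tRNA genes chromosome 1 had the lowest share, 25 of 238 (10.5%), and it holds the Tyr and Ser array and most of the Pro arrays.

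Other genes for small RNAs give a comparison by kind of RNA. With the same extension, 4 of 287 snoRNA genes (1.39%), 10 of 326 miRNA genes (3.07%) and 12 of 82 snRNA genes (14.6%) had a peak of either list. The snRNA calls came almost wholly from U2, a spliceosomal RNA made by RNA polymerase II: 10 of 23 U2 genes had a peak, 10 with IonPGM and 7 with Illumina, led by U2.11 at percentiles 84.9 and 91.9. The U2 copies resemble each other too. Of the 17 genes named U6, which RNA polymerase III transcribes, none had a peak of either list, and none of the 12 U4 and 14 U5 genes had one. Over all nuclear genes 10.3% had a peak of either list. The U6, U4 and U5 groups are small, so no contrast with tRNA genes is read from them. Among rRNA genes, which are longer (median 986 bp), 3 of 4 had a peak, 3 with IonPGM and 1 with Illumina. AT2G01010 stood at percentiles 93.2 (IonPGM) and 80 (Illumina).

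Protein genes of tRNA biology were looked up by symbol, which finds some of them. By name, 3 genes of the RNA polymerase III machinery could be found in the RefSeq table, the TATA-binding protein genes TBP1 and TBP2 and TFIIIA, which serves 5S rRNA genes, and none had a peak of either list. NRPC1 and NRPC2, the largest subunits of RNA polymerase III, were chosen after their values were seen: NRPC1 had an Illumina peak at percentile 3.77 and NRPC2 had none. Of 11 genes named as tRNA synthetase or tRNA ligase 1 had a peak, ERS (a glutamate tRNA synthetase), at Illumina percentile 57. Over all protein-coding genes 12.2% had a peak of either list, so nothing particular to these few genes is read from the counts.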

How the data were processed

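Chromatin bound by CCA1-FLAG was measured in 2 libraries, 1 per sequencer, and each is its own group. MACS2, Bowtie 0.12.7 and SAMtools 0.1.18, with the TAIR10 build, are named in the submitters' processing notes. Not given in the sources used here were the threshold, any control library and the handling of reads with several matches. The deposited files hold, per peak, a start and an end (read as 0-based and printed 1-based) and the authors' score, whose scale is not given; it served only as a percentile within its list. Peaks were called per sample. Read depth is unknown, so no detection limit was set.

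tRNA genes, amino acids and neighbours came from a RefSeq table on TAIR10.1. It carries another build name, so no coordinate of it is printed. The 2 tRNA genes it does not name by amino acid count in the totals. Each gene was extended by 200 bp and called with at least 1 bp of overlap. The planned search of gene descriptions was run on symbols and synonyms, since that table has no descriptions, and motifs were not searched, since no sequence was used here. Named genes were the 10 highest with a peak of both lists by mean percentile, the 3 highest of each single list, those nearest the 200 bp limit, and clusters; other members were named after their values were seen. The members and lists were chosen with earlier results of these data known. No test was run: the peaks chose the members, and each group holds 1 library. Intervals are exact (Clopper-Pearson, 95%). Alternatives were other extensions, overlap rules, score limits, cluster gaps and gene sets. The overlap code was tested on simulated data. Software was pandas 2.3.3 and NumPy 2.4.6 under Python 3.11.15, with SciPy 1.17.1 for intervals and Matplotlib 3.10.9 for plots.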

Additional observations from a re-analysis of the deposited data

How the results depend on the processing

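Of 87 values under other settings, 60 stayed close to the reported value and 27 did not, where counts were held to a factor of 1.5 and shares and medians to the exact 95% interval of the reported value. With no extension 101 tRNA genes had a peak of either list and with 1000 bp 136, against 110. Peaks above the 50th score percentile left 54 genes (either list), 20 (both), 26 (IonPGM) and 48 (Illumina), as fewer peaks enter. Without tRNA genes near a coding gene end, which leaves 143 genes, mostly arrays, the counts were 4, 1, 2 and 3. Windows moved by 1000, -1000, 2000 and -2000 bp, an alternative chosen after seeing the data, gave 18, 18, 23 and 17. The clustered share was 0.7576% in clusters of 3 or more and 21.05% with loci counted once. With IonPGM alone the shares were 14.29% (Trp), 10% (His), 12.5% (Glu) and 0% (Pro), and without clusters of 10 or more Tyr stood at 23.81%. For comparison features, no extension, 500 bp and percentiles above 50 gave 8.042%, 12.45% and 5.058% of all nuclear genes and 3.397%, 7.625% and 2.707% of coding gene ends; snoRNA genes stood at 5.575% with 500 bp and 0.3484% above percentile 50. No paired analysis was possible because each group holds 1 library. Unknown depth and 1 library per sequencer limit every value.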
